A study of Neurospora crassa with 10 samples.

Results

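The genes described here are the protein-coding genes that lie at the chromosome ends of the filamentous fungus Neurospora crassa, in the corrected genome assembly version 14 (nc14). A gene was counted as subtelomeric when it has a coding sequence and its whole span lies within bases 1 to 75000 of a chromosome (linkage group, LG), or within the last 75 kb up to the highest gene end of that LG. This rule gave 268 subtelomeric genes of 9730 protein-coding genes on the 7 LGs, and the other 9462 genes were the reference. The 268 genes lie at 13 ends, with 122 genes at 6 left ends and 146 genes at 7 right ends. The left end of LG V gave no gene, since its first 75 kb hold 25 ribosomal RNA genes and 1 transfer RNA gene, and its first protein-coding gene starts at base 402846. The study made in situ Hi-C contact maps of germinated conidia of the wild type strains N150 and N3752, in 10 datasets that differ in the strain, the restriction enzyme (DpnII, MseI or a digest with both) and the number of PCR cycles, and 2 of which are merged. None of these datasets enters here, because the processed file used is the gene annotation of nc14, which holds gene positions and no measured expression, contact or chromatin value. A gene is therefore a model in this annotation. A left end is base 1 of the assembled sequence, and a right end is the highest gene end. Sequence beyond the last gene is not counted in distances from a right end, so left and right distances are not like measures.

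Telomeres are the repeat-capped tips of linear chromosomes, and the DNA next to them is called subtelomeric. In Neurospora the subtelomeres are silent regions that carry the heterochromatic histone marks H3K9me3 and H3K27me2/3 and cluster at the nuclear envelope. The paper defines them by these marks, as regions that reach farther from the telomere than the windows used here. Genes of such regions that lie beyond the windows are therefore in the reference. The contrast made here is between end windows and the rest, not between marked subtelomeres and the rest. In many fungi, genes near chromosome ends include families used for carbon sources, secondary metabolites or other functions needed only at times. Chromatin state was not measured in the annotation, so the position of a gene is the only property by which it was chosen.

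The ends differed in how many genes they hold. The left ends held 14 genes on LG I, 24 on LG II, 16 on LG III, 20 on LG IV, 25 on LG VI and 23 on LG VII. The right ends held 6 genes on LG I, 23 on LG II, 24 on LG III, 23 on LG IV, 29 on LG V, 22 on LG VI and 19 on LG VII. The mean was 20.6 ± 5.87 genes per end (SD, n = 13 ends), and 21.8 ± 4.06 (n = 12) without the right end of LG I. Left ends averaged 20.3 ± 4.50 genes (n = 6) and right ends 20.9 ± 7.20 genes (n = 7). Protein-coding gene spans covered 59.0% ± 15.9 of an end window (SD, n = 13), with the lowest value, 19.6%, at the right end of LG I and the highest, 80.5%, at the left end of LG VII. The map of the 13 ends shows both extremes, and it also shows genes on both strands at each end.

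**Figure D1:**
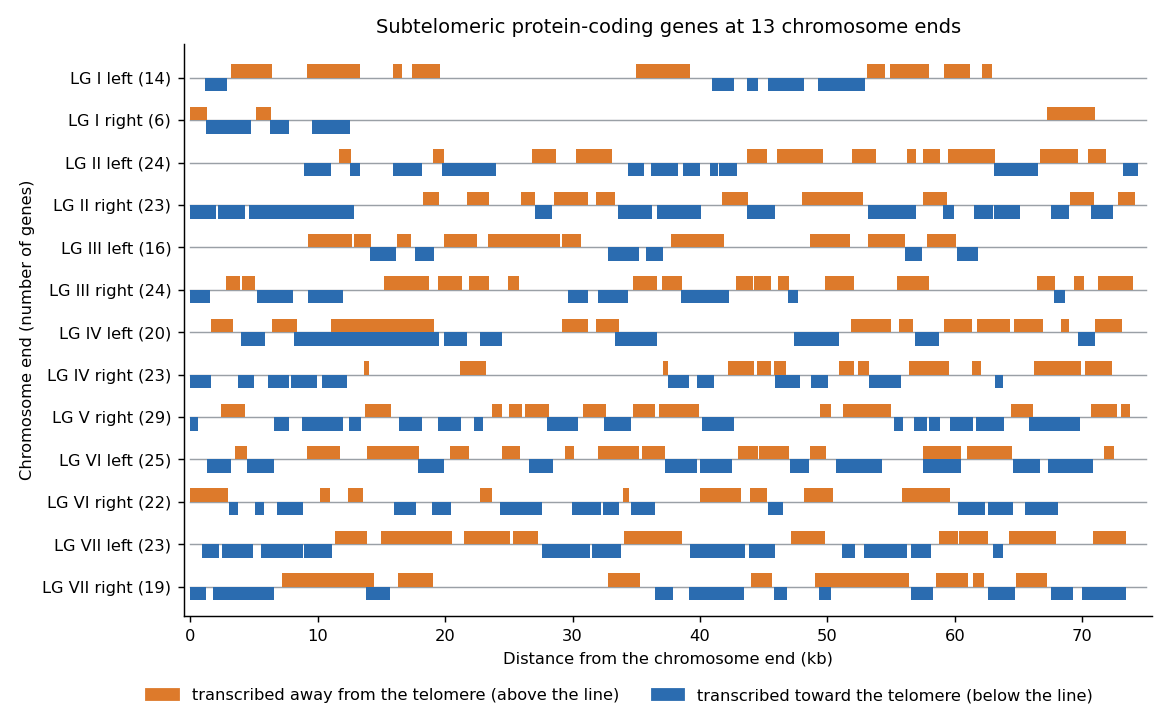
Map of the 268 subtelomeric protein-coding genes, with distance from the chromosome end in kb on the horizontal axis and the 13 ends, with their gene numbers, on the vertical axis. Orange boxes above a line are genes transcribed away from the telomere and blue boxes below it are genes transcribed toward it; for left ends the distance is counted from base 1, for right ends from the highest gene end. The right end of LG I stands out by a stretch of 54681 bp without a gene.

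Each end was set against the other windows of 75 kb on its own LG. These 527 inner windows had medians of 17 to 19.5 whole genes, depending on the LG. Genes cut by a window edge were not counted. An inner window can lose genes at both edges and an end window only at its inner edge, which favors the ends in these gene numbers. Of the 13 ends, 9 held more genes than the median inner window and 4 held fewer. The right end of LG V, with 29 genes, held more than each of the 88 inner windows of LG V, which held at most 28. At the left end of LG VI, 1 of 53 inner windows held more than its 25 genes. At the right end of LG I, 9 of 130 inner windows held fewer than its 6 genes. In gene coverage, 8 ends were above the median of their inner windows and 5 were below it. Among the inner windows, 24 held no whole gene, and the end windows had no such case apart from the left end of LG V.

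**Figure D2:**
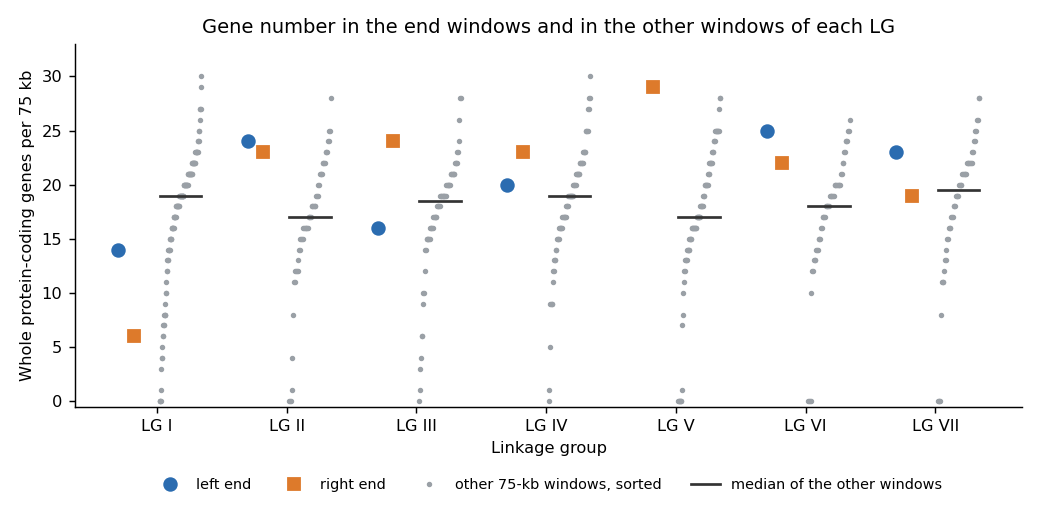
Number of whole protein-coding genes per 75 kb (vertical axis) on each LG (horizontal axis). Blue circles are left ends, orange squares are right ends, grey points are the other 75-kb windows of that LG in sorted order, and black lines are their medians, which are 17 to 19.5; only the right end of LG V, with 29 genes, lies above all other windows of its LG.

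As gene density, the subtelomeric windows held 28.3 ± 7.67 genes per 100 kb and the remaining sequence 23.7 ± 0.784 (SD, n = 7 LGs). The density was higher at the ends on 6 of 7 LGs, and the mean difference of 4.57 ± 7.95 genes per 100 kb was smaller than its SD over LGs. It did not pass the test (exact 2-sided sign-flip permutation test over 7 LGs, p = 0.172, Benjamini-Hochberg adjusted p = 0.516). LG I was the exception, with 13.3 genes per 100 kb at its ends and 23.7 in its other sequence. The other extreme was LG V, with 38.7 genes per 100 kb at its right end, 15.7 more than in its other sequence. Without LG I the difference was 7.06 genes per 100 kb, at the smallest p that 6 LGs allow (exact p = 0.03125, adjusted p = 0.281), and without LG V it was 2.71 (exact p = 0.344, adjusted p = 0.844). Without gene-free intervals of 50 kb or more in the reference, it was 2.39 genes per 100 kb (exact p = 0.406). Right windows begin at a gene by rule, while left windows begin at base 1 of the sequence, so density is not measured in the same way on both sides.

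Within the windows, genes were spread evenly on average. The outermost 25 kb held 6.77 ± 1.64 genes, the next 25 kb 6.92 ± 3.04 and the innermost 25 kb 6.92 ± 2.63, by gene midpoint (SD, n = 13 ends). The right end of LG I had 5 genes in the outermost 25 kb, 0 in the next and 1 in the innermost. Its gap runs from 9893797 to 9948477 of LG I, between NCU08642 and NCU10027, and the RefSeq gene table of assembly NC12 lists no gene of any kind between these neighbors. The next longest gap between subtelomeric genes was at the left end of LG I, with 15365 bp between NCU09904 and NCU09906, where the NC12 table has 1 noncoding RNA gene, NCU14001. Gaps of 13831 bp at the right end of LG IV and 13707 bp at the right end of LG VII followed. At the left end of LG II, by contrast, no gap between genes was longer than 2864 bp, although its first gene starts 8926 bp after base 1. Over all 255 pairs of neighboring subtelomeric genes, the median distance was 571 bp, against 638 bp for the 9468 other neighbor pairs. The ends of LG I had the longest median distance, 1009.5 bp against 593 bp on the rest of that LG, and those of LG VII the shortest, 389.5 bp against 654 bp. On 6 of 7 LGs the median distance was shorter at the ends.

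Gene order at the ends was the same as in NC12. The paper made nc14 from NC12 by placing unassigned sequence inside LG I and on the left arm of LG V. It also mentions an earlier correction of LG VI. The gene models carry NC12 numbers, so the match mostly follows from this origin and is not an independent check. All 268 genes were found in the NC12 table by their NCU number, and at each of the 13 ends they stood in the same order there, with no other protein-coding gene between them. The table lists 9 transfer RNA genes and 3 noncoding RNA genes between them, 3 of the transfer RNA genes at the right end of LG II. No gene of the table lies beyond the outermost subtelomeric gene of any of these 13 ends.

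The outermost genes are the closest annotated neighbors of the telomeres. At the left ends they are NCU10129 (LG I), NCU09634 (LG II), NCU09526 (LG III), NCU10285 (LG IV), NCU07143 (LG VI) and NCU09306 (LG VII), which start between 949 and 9256 bp after base 1. NCU09306, at bases 950 to 2274 on the minus strand, is the closest, and NCU09526, at 9257 to 12729 on the plus strand, the farthest. At the right ends they are NCU10031 (LG I), NCU09495 (LG II), NCU16718 (LG III), NCU10037 (LG IV), NCU17054 (LG V), NCU04991 (LG VI) and NCU05903 (LG VII). NCU09495 is set-6, which encodes a protein with a SET domain, the catalytic domain of many histone lysine methyltransferases. It lies at 4468613 to 4470618 of LG II and is annotated with a 5′ untranslated region (UTR) of 632 bp. Of the 13 outermost genes, 9 are transcribed toward the telomere, 3 have a single exon, and 2, NCU09634 and NCU17054, have no annotated UTR. Their coding lengths range widely. NCU16718 has a coding length of 264 bp (88 amino acids), and NCU04991 has 2523 bp (841 amino acids) with 4 coding introns.

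Direction of transcription did not set the subtelomeric genes apart. Of the 268 genes, 129 are transcribed toward the nearer telomere and 139 away from it. Averaged over LGs, 47.7% ± 8.17 pointed to the telomere, against 49.0% ± 0.984 of the other genes (SD, n = 7, exact p = 0.719, adjusted p = 0.719). The share was highest at the right end of LG VI (59.1%, 13 of 22 genes) and lowest at the right end of LG III (33.3%, 8 of 24 genes). The right ends had the higher share on 5 of 6 LGs with both ends, 50.8% against 43.3% at the left ends, a difference of 7.52 ± 7.58 percentage points that did not pass (exact p = 0.0938, adjusted p = 0.638 over 13 properties). None of the other 12 properties compared between right and left ends had a lower p. The longest run of subtelomeric genes on 1 strand had 6 genes, from NCU09616 to NCU09610 at the left end of LG II, which point away from the telomere. Runs of 5 genes toward the telomere lie at the right ends of LG IV and LG V and at the left end of LG VII.

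The arrangement of neighbors was also close to that elsewhere. Among the 255 neighbor pairs, 122 (47.8%) were on the same strand, 69 (27.1%) were divergent, with their starts facing each other, and 64 (25.1%) were convergent, with their ends facing each other. In the other pairs these shares were 44.8%, 27.6% and 27.6%. Convergent subtelomeric pairs were the closest, at a median distance of 138.5 bp, and same-strand pairs the farthest apart, at 762 bp. Of the 255 pairs, 29 (11.4%) overlapped, against 11.7% of the other pairs, and 25 of the 29 were convergent and 4 divergent. Overlap on the same strand was rare in both sets, with 0 of 122 subtelomeric same-strand pairs and 51 of 4237 (1.20%) elsewhere.

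Subtelomeric genes had a lower median length than the other genes on 6 of 7 LGs, by a difference that did not exceed its spread between LGs. The median gene length, from the first to the last base of its records, was 1911 ± 194 bp for subtelomeric genes and 2127 ± 70.4 bp for the others (SD, n = 7 LGs). The difference of -216 ± 228 bp did not pass the test (exact p = 0.0625, adjusted p = 0.281). It was greatest on LG III, with 1638 bp against 2160 bp, and it ran the other way on LG VII, with 2219.5 bp against 2029 bp. The middle 50% of subtelomeric genes spanned 1310.5 to 2602.5 bp, and that of the other genes 1458 to 3050.75 bp. The coding length differed less. Its median was 1211 ± 197 bp at the ends and 1264 ± 19.6 bp elsewhere, a difference of -53.4 ± 192 bp (exact p = 0.516, adjusted p = 0.719). LG II had the shortest subtelomeric coding sequences, with a median of 906 bp against 1281 bp, and LG VII and LG I had medians of 1431 and 1429.5 bp, against 1263 and 1281 bp.

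The longest coding sequence is that of pks-5 (NCU09638), a polyketide synthase, one of the large multidomain enzymes that assemble secondary metabolites. It lies at 11075 to 19163 on the left arm of LG IV on the plus strand, has a coding length of 7884 bp (2628 amino acids) in 4 exons, and is annotated without a UTR. Its neighbor NCU09637, which was singled out after its values were seen, spans 11436 bp on the opposite strand and contains the whole of pks-5. The coding length of NCU09637 is 1290 bp, while its annotated 5′ UTR is 9173 bp long, and 99.3% of the pks-5 bases lie in exons of NCU09637. The other longest coding sequences are those of NCU09492 (6546 bp), NCU05901 (6231 bp), NCU09520 (5118 bp) and NCU09301 (4659 bp). The shortest are those of NCU09650 (222 bp, 74 amino acids), NCU09630 (228 bp), NCU16718 and NCU17050 (264 bp each) and NCU07142 (270 bp). The short genes are not without structure, since NCU09630 has 2 coding introns and each of these 5 genes has both UTRs annotated. In all, 12 subtelomeric genes (4.48%) had a coding length under 300 bp, against 324 (3.42%) of the other genes.

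Coding introns were fewer at the ends of 6 of 7 LGs, before adjustment for the number of properties compared. Introns are the stretches removed from a transcript by splicing, and a coding intron here is a gap between parts of the coding sequence in the transcript with the longest coding sequence. Subtelomeric genes had 1.19 ± 0.210 coding introns and the other genes 1.598 ± 0.0725 (SD, n = 7 LGs). On LG I the means were 1.00 at the ends against 1.70, on LG II 1.34 against 1.56, on LG III 1.125 against 1.604 and on LG IV 1.02 against 1.66. On LG V they were 1.03 against 1.63 and on LG VI 1.26 against 1.56, while LG VII had 1.57 at its ends against 1.48. The ends were thus lower on 6 of 7 LGs. The mean at the ends of LG VII lay within the range of the means of the other genes, so both sets overlapped over the 7 LGs. The difference was -0.41 ± 0.28 introns per gene (exact p = 0.03125, adjusted p = 0.281 over 9 properties), so it did not pass after adjustment. The smallest p that 7 LGs allow is 0.015625, and a single property at that value would not pass adjustment over 9. With the 13 ends in place of the LGs as units, where the ends of an LG share their reference genes, the difference was -0.37 ± 0.33, lower at 12 of 13 ends (exact p = 0.0022, adjusted p = 0.0198). Over all alternatives tried for this property the adjusted p of the exact test ran from 0.0198 to 0.5625. The exception was the right end of LG VII, with 1.68 introns per gene.

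**Figure D3:**
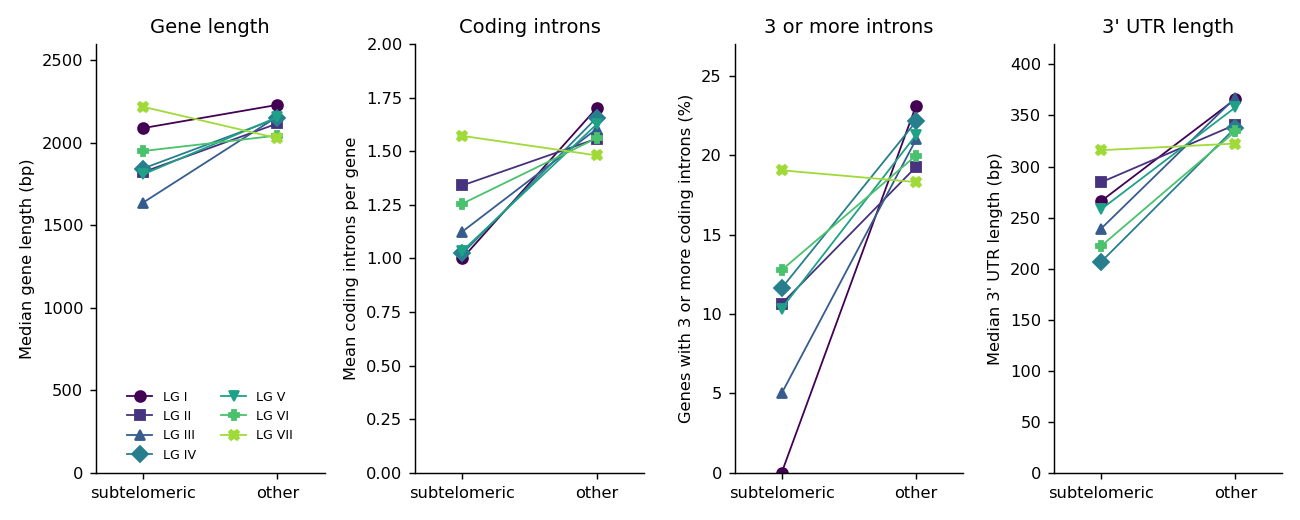
Subtelomeric genes (left) and the other genes (right) of each LG, for the median gene length in bp, the mean number of coding introns, the percentage of genes with 3 or more coding introns and the median 3′ UTR length in bp (vertical axes). Each line is 1 of the 7 LGs; the ends lie lower on all 7 LGs for 3′ UTR length and on 6 of 7, with LG VII as the exception, for the other panels.

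The share of genes with exactly 1 coding intron was higher at the ends and the share with 3 or more was lower, while genes with a single exon differed little. Single-exon genes made up 19.9% ± 8.16 of subtelomeric genes and 18.7% ± 1.47 of the others (SD, n = 7 LGs, exact p = 0.688, adjusted p = 0.719), and pooled over LGs they were 52 of 268 and 1743 of 9462. Of the 268 genes, 67 (25.0%) had no coding intron and 120 (44.8%) had exactly 1, against 22.1% and 34.0% of the other genes. Those with 3 or more numbered 29 (10.8%), against 2003 (21.2%) elsewhere. The share with 3 or more was examined after the data had been seen. Averaged over LGs it was 9.92% ± 6.02 at the ends and 20.7% ± 1.66 elsewhere, lower on 6 of 7 LGs (exact p = 0.03125, adjusted p = 0.102 over 13 properties). On LG I none of the 20 subtelomeric genes had 3 or more coding introns, against 23.1% of the other genes of LG I. Coding introns per kb of coding sequence, also added after the data had been seen, were 0.840 ± 0.136 at the ends and 1.05 ± 0.0461 elsewhere. With both ends pooled they were lower on 7 of 7 LGs (exact p = 0.015625, adjusted p = 0.102), although on LG II the values were 0.993 and 0.994. The pooled value of LG II joins unlike ends, with 1.34 at the left and 0.725 at the right. Taken singly, 12 of 13 ends were lower, and the left end of LG II was the exception and the highest of all ends. The introns themselves had a similar size, with a median over genes of 75 bp at the ends and 78 bp elsewhere.

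**Figure D4:**
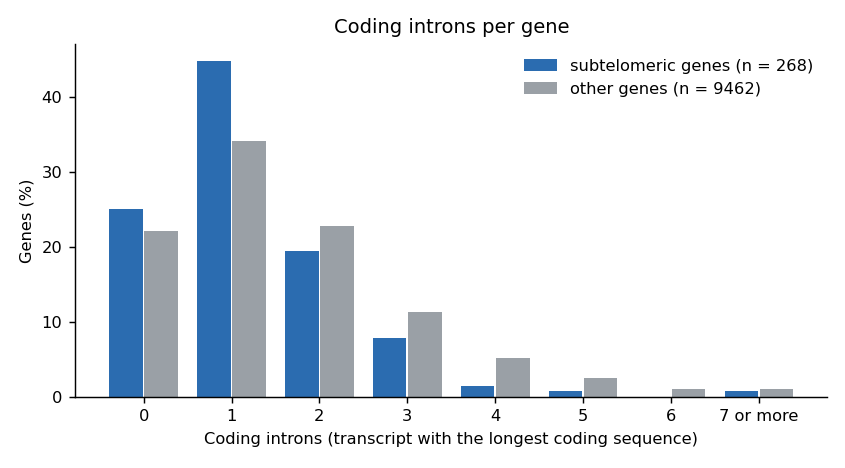
Percentage of genes (vertical axis) by number of coding introns (horizontal axis) for the 268 subtelomeric genes (blue) and the 9462 other genes (grey). Subtelomeric genes have the taller bar at 1 intron, 44.8% against 34.0%, and lower bars at 2 to 6 introns.

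A few subtelomeric genes go against this. NCU05895 (LG VII, 4192069 to 4196402) and NCU09604 (LG II, 73202 to 74342) have 7 coding introns each, the highest number among the 268. NCU09604 has a coding length of 468 bp, so its introns sum to 514 bp and exceed its coding sequence. NCU07148 at the right end of LG V and pcb-1 (NCU09290) at the left end of LG VII have 5 coding introns each. In NCU07148 these introns sum to 1193 bp, against a coding length of 897 bp.

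UTR annotation was about as frequent at the ends as elsewhere. A UTR is the transcribed part of a gene before (5′) or after (3′) its coding sequence, and here it means exon bases outside the coding sequence and stop codon. Of the 268 genes, 76.5% had a 5′ UTR and 75.7% a 3′ UTR, and 193 genes had both and 53 had none. Over LGs, a 5′ UTR was annotated in 76.1% ± 8.18 of subtelomeric genes and 77.6% ± 2.86 of the others (exact p = 0.703, adjusted p = 0.719). For the 3′ UTR the shares were 75.3% ± 8.82 and 79.4% ± 2.59 (SD, n = 7, exact p = 0.344, adjusted p = 0.647). The ends were unlike each other in this. At the left end of LG III 15 of 16 genes had a 5′ UTR, while at the right end of LG V 18 of 29 did. The right end of LG V held 11 of the 53 genes with no UTR, 9 of them among its outermost 10 genes, whereas no other end had more than 4 in its outermost 10. That count was made after the data had been seen.

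Where a 3′ UTR was annotated, its median length was lower at the ends of each of the 7 LGs when both ends of an LG were pooled. The median 3′ UTR length, a property added after the data had been seen, was 256 ± 37.4 bp in subtelomeric genes and 347 ± 17.2 bp in the others (SD, n = 7 LGs). It was lower on 7 of 7 LGs, with a mean difference of -90.8 ± 44.7 bp, which gives the smallest p that the design allows but did not pass after adjustment (exact p = 0.015625, adjusted p = 0.102). The subtelomeric medians ranged from 206.5 bp on LG IV to 316 bp on LG VII, and those of the other genes from 322.5 bp on LG VII to 367.5 bp on LG III, so the LG medians of both sets did not overlap. On LG VII the difference was 6.5 bp. Taken singly, 11 of 13 ends were lower than the other genes of their LG. The exceptions were the left end of LG IV, with 339 bp against 338 bp, and the right end of LG VII, with 325.5 bp against 322.5 bp. Both lie within the range of the LG medians of the other genes. The 5′ UTR had a median length of 263 ± 80.9 bp at the ends and 312 ± 14.9 bp elsewhere, lower on 4 of 7 LGs (exact p = 0.172, adjusted p = 0.319). The sources used here do not say how the UTRs of these gene models were determined.

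Alternative transcripts were rare. In all, 19 subtelomeric genes had more than 1 annotated transcript, and NCU09301, NCU09483 and NCU09492 had 3, the highest number among the 268. The share over LGs was 6.90% ± 4.34 at the ends and 9.05% ± 1.22 elsewhere (SD, n = 7, exact p = 0.359, adjusted p = 0.647). The genes with more than 1 transcript were unevenly placed, with 4 each at the left end of LG IV and the right end of LG II and none at 4 of the 13 ends.

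To see whether the end windows differ from the sequence next to them, genes were also sorted by the distance of their midpoint to the nearer end, in zones chosen after the data had been seen. A 5′ UTR was annotated in 76.0% ± 7.60 of genes within 75 kb of an end, 71.4% ± 7.49 of genes at 75 to 150 kb, 61.6% ± 9.29 at 150 to 300 kb and 78.8% ± 2.52 beyond 300 kb (SD, n = 7 LGs). For the 3′ UTR the shares were 75.3% ± 8.28, 73.7% ± 6.08, 62.6% ± 8.91 and 80.6% ± 2.22. The lowest values thus lay at 150 to 300 kb and not at the tips. That zone can still fall within the subtelomeres as the paper defines them. The outermost zone exceeded the zone at 150 to 300 kb by 14.4 percentage points for the 5′ UTR (higher on 6 of 7 LGs, exact p = 0.03125, adjusted p = 0.075 over 12 comparisons) and by 12.7 for the 3′ UTR (higher on 7 of 7, exact p = 0.015625, adjusted p = 0.0625). The zone at 150 to 300 kb was in turn lower than the sequence beyond 300 kb on 7 of 7 LGs, by 17.2 and 18.0 percentage points (exact p = 0.015625 and adjusted p = 0.0625 for each). None of the 12 comparisons passed after adjustment. Coding introns per gene ran differently, with 1.19 ± 0.214 within 75 kb, 1.20 ± 0.188 at 75 to 150 kb, 1.38 ± 0.245 at 150 to 300 kb and 1.62 ± 0.0808 beyond 300 kb. Between the first 2 of these zones the difference was -0.010 ± 0.206 (exact p = 0.9375, adjusted p = 0.9375). A low intron number was thus not particular to the end windows. The median gene length was 1924 ± 193, 1961 ± 109, 1923 ± 290 and 2140 ± 82.7 bp in the same zones, so shorter genes were not particular to them either. Gene number did not follow distance, with 21.1 ± 6.09, 18.2 ± 4.34, 21.8 ± 4.23 and 18.5 ± 4.82 genes in the 4 consecutive 75-kb steps from the ends (SD, n = 13 ends).

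**Figure D5:**
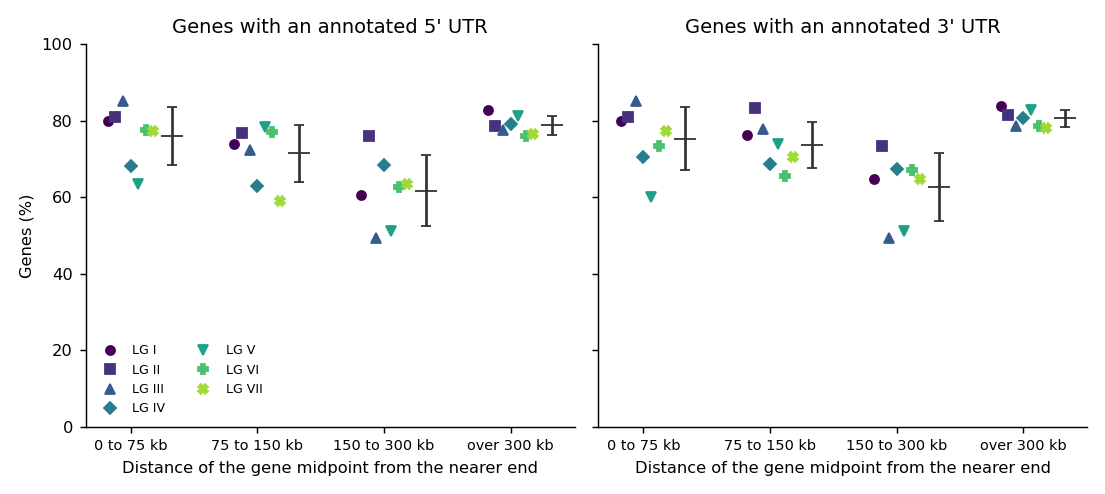
Percentage of genes with an annotated 5′ UTR (left panel) or 3′ UTR (right panel) by distance of the gene midpoint from the nearer chromosome end in kb (horizontal axis). Symbols are the 7 LGs and black marks are means with SD over LGs; the lowest means, 61.6% and 62.6%, are those at 150 to 300 kb.

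Of the 268 genes, 25 (9.33%) carry a gene symbol in the RefSeq table, against 11.6% of the other genes. Only these are described by function here. Product names of the remaining members were not at hand, so their identity was not examined. Enzymes that break down carbohydrates are represented by gh13-3, gh61-5, gh3-3, gh10-4 and gh10-3. The share of such genes elsewhere was not counted, for this group or for those named below. Whether any group is more frequent at the ends was therefore not tested. The name gh61-5 stands for a family now known as lytic polysaccharide monooxygenases, which cut cellulose by oxidation, while gh10-3 and gh10-4 belong to a family of xylanases and gh3-3 to one that includes beta-glucosidases. gh61-5 (NCU08760, 5242495 to 5244087) and gh3-3 (NCU08755, 5254966 to 5258478) lie at the right end of LG III, 29631 and 15240 bp from it. gh10-3 (NCU04997) and gh10-4 (NCU07130) lie at opposite ends of LG VI, the first 16010 bp from the right end and the other 47074 bp from the left. Each of these 5 genes has 2 coding introns.

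Genes of mitochondrial energy metabolism were also present. aac (NCU09477, right end of LG II) encodes the ADP/ATP carrier of the inner membrane, and nuo21.3c, acp-1 and nuo14 encode subunits of respiratory complex I. nuo21.3c (NCU05009) and acp-1 (NCU05008) are direct neighbors on the plus strand at the right end of LG VI, 217 bp apart. nuo14 (NCU09299) lies 25354 bp from the left end of LG VII. These are short coding sequences with much intron sequence, 965 bp of coding introns beside 402 bp of coding sequence in acp-1 and 893 bp beside 363 bp in nuo14.

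Genes for DNA repair and replication lie within 75 kb of ends as well. mus-41 (NCU09516, LG III, 37692 to 41877) is the homolog of the yeast post-replication repair gene RAD5 and has a coding length of 3684 bp. uvs-3 (NCU09644, LG IV, 51826 to 55019) encodes the ATRIP homolog of the DNA damage checkpoint, with 2907 bp. cdc7 (NCU11410, LG VII, 31558 to 33772) is named for a kinase that starts DNA replication. Biosynthesis, transport and stress genes include erg-3 (NCU08762, sterol C-14 reductase), his-6 (NCU07156, histidine biosynthesis), pmb (NCU05168, basic amino acid permease), cat-4 (NCU05169, a catalase) and cao-2 (NCU11424, a carotenoid oxygenase). Of these, cao-2 is the closest to an end as counted here, 2482 bp from the left end of LG VII, where it is the gene next to the outermost. cat-4 and pmb are neighbors that transcribe in opposite directions from a shared region of 656 bp at the right end of LG IV, and the 5′ UTR of cat-4, 1455 bp, is close to its coding length of 1548 bp. con-6 (NCU08769), a gene expressed during conidiation, and stk-52 (NCU08767), a serine/threonine kinase gene, lie 67791 and 55447 bp from the right end of LG III. The remaining named genes are cen-c (NCU09609), bek-2 (NCU07139), ci-1 (NCU05001) and pcb-1.

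The 25 genes with a symbol differed from the other 243 in their annotation. They had 1.80 coding introns on average, against 1.16 in the genes without a symbol, and a median coding length of 1548 bp against 1200 bp. A 5′ UTR was annotated in 23 of 25 and a 3′ UTR in 22 of 25, against 182 and 181 of 243. None had a single exon, against 52 of 243. The exceptions without any UTR were pks-5 and gh10-4. These are descriptions without a test, since genes of 1 end are neighbors and not replicates. Genes with and without a symbol were not compared elsewhere in the genome, so the contrast cannot be called particular to the ends. A related description is the NCU number itself. Of the 268 genes, 52 (19.4%) have a number of 10000 or more, against 9.54% of the other genes, and the share was higher at the ends on 6 of 7 LGs. The exception was LG II, with 4.26% against 8.77%. The 52 genes had a median coding length of 787.5 bp, against 1339.5 bp in the 216 with lower numbers, and elsewhere the corresponding medians were 777 and 1311 bp. At the outermost position, 6 of 13 genes have such a number.

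The limit of 75 kb lies inside gene-bearing sequence at most ends. It is crossed by 9 genes, which were left in the reference, and 7 genes end within 2 kb inside it. Among those just inside, NCU09604 at the left end of LG II lies 658 bp from the limit and has 7 coding introns, NCU09473 at the right end of LG II lies 858 bp from it and has 1, and NCU08771 at the right end of LG III lies 1028 bp from it and has 1. NCU09651 and NCU09287 have 3 coding introns each, NCU05885 has 1 and NCU17050 has none. The 9 crossing genes have 0 to 3 coding introns, and the longest, NCU05011 at the right end of LG VI, spans 7311 bp with a coding length of 7038 bp. The others are NCU08641, NCU09472, NCU08772, NCU09652, NCU07170, NCU07121, NCU11411 and NCU05884. At the left end of LG III the limit falls in a gap of 16895 bp that follows NCU09510.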

How the data were processed

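The Hi-C libraries of wild type Neurospora crassa were made by the study from germinated conidia. The deposited annotation lists 81158 records with start and end positions in bp of assembly nc14, and no depth, count or other value per library. The authors corrected NC12 with MseI Hi-C data to obtain nc14; the tool that moved the gene models was not named in what was read here. A gene's span ran from the lowest to the highest base of its records, and the transcript with the longest coding sequence gave coding length, introns and UTRs. Values per LG (both ends pooled) were set against the other genes of that LG by an exact 2-sided sign-flip permutation test over 7 LGs, with Benjamini-Hochberg adjustment over 9 properties, or over 13 for the 4 properties added after the data had been seen, at a threshold of 0.05. The LGs are the chromosomes of 1 assembly and not biological replicates, so SDs and p-values measure the spread between chromosomes only. The test was checked on simulated data. Gene symbols and neighbors came from the RefSeq table of NC12, matched by NCU number for 268 of 268 genes; positions in NC12 were used only for the order of genes. Named genes were the outermost gene of each end, the 5 longest and 5 shortest coding sequences, the 3 with most coding introns, ties included, those with 3 or more transcripts, those with a symbol, and those at the window limit. The members, the properties and the lists were chosen with earlier results of these data known. Promoter GC and product names were planned and not run, since no promoter or product table was at hand. Python 3.11.15, numpy 2.4.6, pandas 2.3.3 and matplotlib 3.10.9 were used.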

Additional observations from a re-analysis of the deposited data

Results flagged for a closer look

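Single values stood far from the others in 2 of 39 sets examined, and chance alone gives about 1 in 20 such sets. The sets held, for each of 13 properties, the values of the left ends, those of the right ends, or the LG differences between subtelomeric and other genes. Both flagged values were those of single ends. Among the 6 left ends, the median gene length of LG II was 1510.5 bp, while the other left ends had 1998.5 to 2224 bp. Among the 7 right ends, the median 5′ UTR length of LG VII was 461 bp, while the other right ends had 120 to 208 bp.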

How the results depend on the processing

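No pairing by replicate was possible because the replicate numbers belong to the Hi-C libraries, which give no value here. The tests over LGs were paired by LG, since they set the ends of an LG against other genes of the same LG. Of 195 values under an alternative, 182 were unchanged in direction and side of the threshold, 8 reversed in direction, 4 passed the threshold and 1 count moved. The 182 include 9 values for the transcript with the lowest ID, which could not change. They also include gene counts, which have no direction or threshold. With 1 LG left out, the smallest possible p cannot pass adjustment for a single property. The total is therefore no measure of robustness. Windows of 50 kb held 173 genes in place of 268, and with them the share transcribed toward the telomere was 3.01 percentage points higher at the ends (exact p = 0.359). With the 13 ends as units, the difference in coding introns per gene was -0.37, in single-exon genes -0.98 percentage points and in genes with a 5′ UTR 0.0779 percentage points. Also with ends as units, the difference in 3′ UTR length was -84.0 bp (exact test, adjusted p = 0.00793), in introns per kb -0.19 (adjusted p = 0.0349) and in genes with 3 or more coding introns -10.5 percentage points (adjusted p = 0.00793). Over all alternatives the adjusted p of the exact test reached 0.203 for each of these 3 properties. Leaving out each LG in turn gave ranges of -2.83 to 1.06 percentage points for transcription toward the telomere, with 0.129 without LG I and 1.06 without LG III. It gave -90.3 to 0.25 bp for coding length (0.25 without LG II), -0.90 to 3.52 percentage points for single-exon genes (-0.90 without LG V) and -3.38 to 1.24 for genes with a 5′ UTR (1.24 without LG V). For coding introns per gene the range was -0.49 to -0.36, for gene length -284 to -165 bp, for 3′ UTR length -105 to -84.0 bp and for gene density 2.71 to 7.06 genes per 100 kb. The cause of these shifts was not tested. The transcript with the lowest ID was the one with the longest coding sequence in all genes (0 of 9730 differed), so that choice could not change a value.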
